A study of Mus musculus with 82 samples.

Results

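The comparison described here set sciatic nerves labelled Mitf-Ndrg1 against sciatic nerves labelled Ndrg1, and so measured what the Mitf label changed in nerve that also carried the Ndrg1 label. It used 10 of the 82 mouse libraries of the series, 5 per group, chosen by their column names in 1 of its 8 gene tables, and all 15910 genes of that table that passed a filter on low counts. The same table held 6 libraries labelled control and 6 labelled Mitf, which shared the estimate of the spread and supplied the same Mitf contrast without the Ndrg1 label. All 4 groups were whole sciatic nerve, frozen after dissection, with messenger RNA sequenced by a stranded method. For these groups the labels give the genotype only as the gene names; the alleles, any Cre driver, the age and the sex of the animals are not given, and no injury is named. The labels call the libraries replicates but do not say that each was a separate animal, so the p-values below measure the spread between these libraries.

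MITF is a basic helix-loop-helix leucine zipper transcription factor, related to TFEB and TFE3, that binds E-box DNA elements and is best known for its role in pigment cells. NDRG1 is highly expressed by Schwann cells that form myelin, and its loss causes a demyelinating neuropathy in humans and mice. Schwann cells that lose contact with an axon, or that lose their myelin, turn down myelin genes and switch on a repair programme that includes JUN, Sonic hedgehog and neurotrophic factors. The series title names Mitf as a sensor of axon integrity that drives repair, and the comparison asks how far the nerve with the Ndrg1 label depends on it.

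Expression is given in CPM, the count of a gene divided by its library size, which was scaled by the trimmed mean of M-values (TMM). A gene is said to have risen or fallen where edgeR's quasi-likelihood test gave a Benjamini-Hochberg adjusted p below 0.05 over all 15910 genes. Log2 changes are Mitf-Ndrg1 minus Ndrg1, with the standard error (SE) of the fit, and SDs are over n = 5 libraries unless another n is given.

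The targeted genes came first. Ndrg1 stood at 171, 188, 187, 191 and 167 CPM in Ndrg1 replicates 1 to 5 and at 168, 190, 186, 160 and 180 CPM in Mitf-Ndrg1 replicates 1 to 5, against 1970 ± 95.5 CPM (SD, n = 6) in control. Both compared groups were therefore equally low for Ndrg1, with a log2 change of -0.03 (SE 0.083, adjusted p = 0.888 in edgeR). Mitf was counted at 17.3, 18.5, 22.9, 20.2 and 14.2 CPM with the Ndrg1 label, and at 17.9, 14.3, 12.1, 14.0 and 17.3 CPM with the Mitf-Ndrg1 label. The libraries of the compared groups overlapped for Mitf, and its log2 change of -0.30 (SE 0.128) did not pass the test (edgeR adjusted p = 0.228). In the pair without the Ndrg1 label, Mitf stood at 18 ± 2.19 CPM in control and 12.2 ± 1.66 CPM in Mitf (SD, n = 6 each), a log2 change of -0.55 with an edgeR adjusted p of 0.236. The deleted part of the gene is not given in the labels, and a count over the whole gene also takes reads from transcripts that lack only some exons, so these counts do not check the Mitf labels.

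The nerves of both compared groups were low in myelin genes and high in macrophage markers relative to control. The 20 myelin protein genes together summed to between 52500 and 66800 CPM in Ndrg1 and between 46500 and 76900 CPM in Mitf-Ndrg1, below the control range of 171000 to 201000 CPM. Summed macrophage markers were 3370 to 4490 CPM in Ndrg1 and 3560 to 4880 CPM in Mitf-Ndrg1, against 472 to 633 CPM in control. Against control, the Ndrg1 label called 9626 of the 15910 genes (60.5%), 30.8% higher and 29.7% lower, and that comparison uses the same Ndrg1 libraries as the one described here. Total estimated counts of the 10 libraries ran from 16114499 to 30933568. In a principal component analysis of the 10 libraries, the first component (36% of the variance) separated 3 Mitf-Ndrg1 libraries and 1 Ndrg1 library that were rich in skeletal muscle RNA from the rest, and the second (14.7%) set Ndrg1 replicate 3 apart. Y-linked genes summed to between 64.9 and 181 CPM in Ndrg1. In Mitf-Ndrg1 replicates 1 to 5 they summed to 201, 0, 18.2, 63.6 and 66.6 CPM, so replicate 2 had none while every Ndrg1 library had some. In the other groups the sum was 0.134 CPM in control replicate 4, 0.6 CPM in Mitf replicate 5 and 0.156 CPM in Mitf replicate 6. With a sex covariate 153 genes passed in place of the 234 given below.

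Skeletal muscle and fat RNA differed widely between libraries within each group. The 31 skeletal muscle markers, such as the muscle creatine kinase Ckm and the sarcomeric actin Acta1, summed to 104, 95.0, 263, 1762 and 103 CPM in Ndrg1 replicates 1 to 5. In Mitf-Ndrg1 replicates 1 to 5 the same sum was 5393, 5990, 100.4, 24790 and 87.9 CPM. Mitf-Ndrg1 replicates 1, 2 and 4 and Ndrg1 replicate 4 stood far above the other 6 libraries, and they are called the muscle-rich libraries here (over 1000 CPM, a limit chosen after seeing the data). No muscle gene of 29 tested passed the test in edgeR, with 14 higher at an unadjusted p below 0.05 and 3 called by DESeq2. Their median log2 change was 3.80 over all libraries and -1.55 without the muscle-rich ones.

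The 18 adipocyte markers followed the same libraries in Mitf-Ndrg1, but not in Ndrg1. They summed to 332, 533, 474, 364 and 403 CPM in Ndrg1 and to 1851, 1527, 511, 2175 and 338 CPM in Mitf-Ndrg1. The 3 muscle-rich Mitf-Ndrg1 libraries were thus the high ones again, while replicates 3 and 5 lay within the Ndrg1 range. Of 16 adipocyte markers tested, 2 rose, against 1.07% of all genes. They were the triglyceride lipase Pnpla2 (log2 0.83, edgeR adjusted p = 0.034) and the triglyceride synthesis enzyme Dgat2 (log2 1.93, edgeR adjusted p = 0.0382). Without the muscle-rich libraries their log2 changes were 0.43 and 0.08, neither passed the test, and the list's median went from 1.77 to 0.0186. Changes in genes of these types are therefore given below with and without those 4 libraries, which leaves 4 Ndrg1 and 2 Mitf-Ndrg1 libraries.

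**Figure D1:**
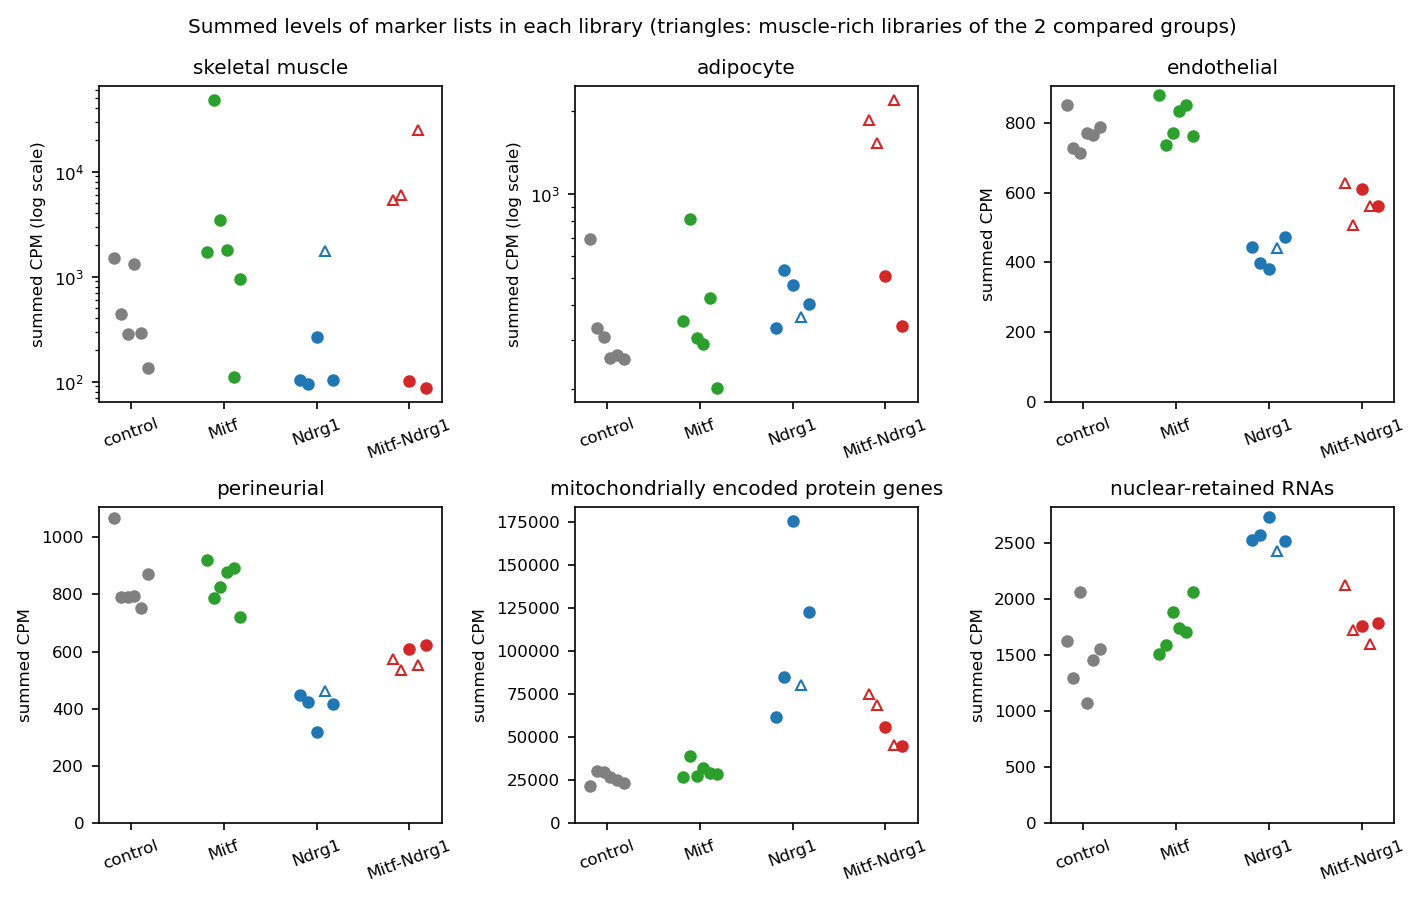
Summed CPM of marker lists in each of the 22 libraries of the table, by group, with a log axis for skeletal muscle and adipocyte markers; each point is a library and triangles mark the 4 muscle-rich libraries of the compared groups. Muscle and fat sums are high in Mitf-Ndrg1 replicates 1, 2 and 4, while endothelial and perineurial sums are higher in all 5 Mitf-Ndrg1 libraries than in all 5 Ndrg1 libraries, and nuclear-retained RNAs are lower in all 5.

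Mitochondrial and nuclear-retained RNAs also differed between the groups. The 13 protein genes of the mitochondrial genome summed to 61930, 85050, 175600, 80020 and 122400 CPM in Ndrg1 and to 74940, 68960, 56110, 45540 and 44710 CPM in Mitf-Ndrg1. Ndrg1 replicate 3 was the highest, and the groups overlapped only through Ndrg1 replicate 1. Of the 13, 3 fell (mt-Nd5, mt-Co3 and mt-Nd6), against 0.402% of all genes, and the median log2 change was -0.87. A list of 8 RNAs held in the nucleus, among them Neat1 and Malat1, summed to between 2437 and 2738 CPM in Ndrg1 and between 1602 and 2129 CPM in Mitf-Ndrg1. No member of that list passed the test in edgeR (4 lower at an unadjusted p below 0.05, 2 called by DESeq2), although the sums of the groups did not overlap. Both lists were drawn up after seeing the data. Results with the mitochondrial level as a covariate are given below, and the part of the nuclear-retained RNAs was not tested.

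Across all genes, 234 of 15910 (1.47%) differed, 170 higher with the Mitf-Ndrg1 label (1.07%) and 64 lower (0.402%). Most changes were small. Among the 170 the median log2 change was 0.60 and 29 reached 1, and among the 64 it was -0.46 and 6 reached -1. The median over all genes was 0.000138, with 7959 genes above zero. At an unadjusted p below 0.05, 2797 genes differed. The libraries of the compared groups did not overlap for 263 higher (1.65%) and 201 lower genes (1.26%). The number called depended on single libraries: it was 131, 119 and 58 without Ndrg1 replicates 2, 4 and 5, and 545, 129, 101 and 63 without Mitf-Ndrg1 replicates 1, 2, 3 and 4. Without the muscle-rich libraries 450 genes passed (2.73% of 16506 tested), 401 higher (2.43%) and 49 lower (0.297%). All 170 higher and all 64 lower genes kept their sign without those 4 libraries, and 68 and 17 of them passed. The libraries that remained had also been used to call these genes, so the kept signs are not an independent check. With muscle and adipocyte levels as covariates 36 passed, and with the mitochondrial level added as well none did (1909 at an unadjusted p below 0.05 in edgeR). With the compared groups fitted alone, without the spread of the control and Mitf libraries, 31 passed, and 22 of them were among the 234.

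**Figure D2:**
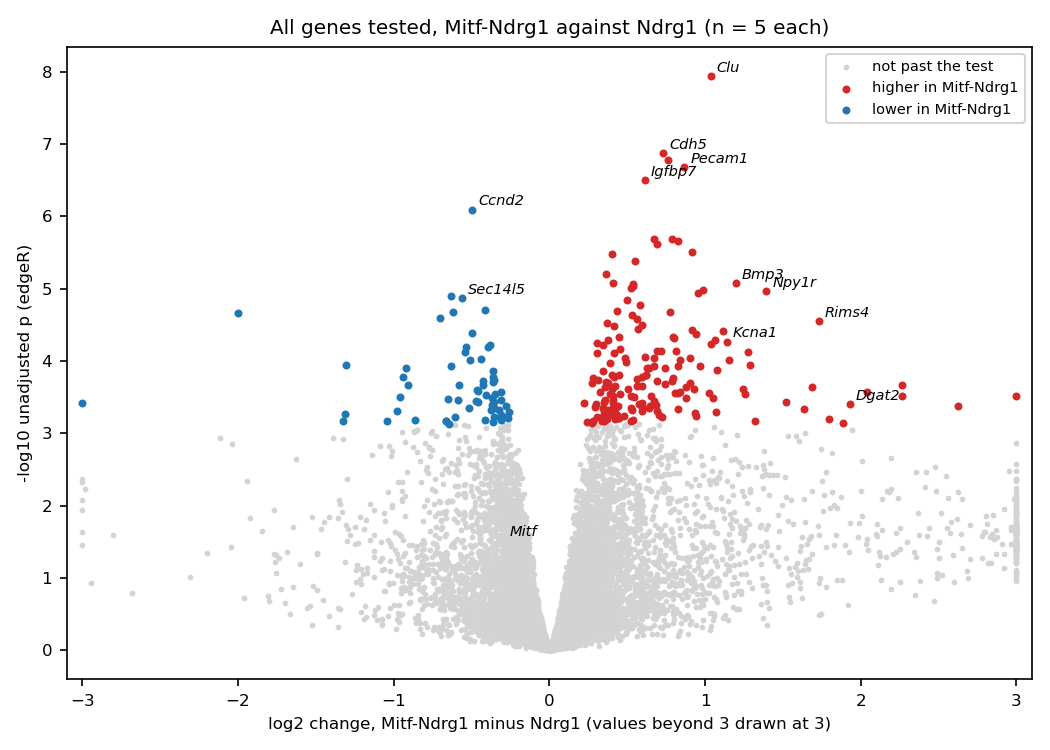
Log2 change (Mitf-Ndrg1 minus Ndrg1, n = 5 each) against -log10 of the unadjusted edgeR p for the 15910 genes tested. The 170 genes in red rose and the 64 in blue fell; Clu has the smallest p, with a log2 change of 1.04, and Mitf lies among the genes that did not pass.

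The gene with the smallest p was Clu, which encodes clusterin, a secreted chaperone (chr14:65968483-65981547, plus strand, mm10). It stood at 29.6, 24.5, 20.3, 26.4 and 25.2 CPM in Ndrg1 replicates 1 to 5 and at 50.6, 46.0, 61.1, 51.6 and 49.4 CPM in Mitf-Ndrg1 replicates 1 to 5. Every Mitf-Ndrg1 library was above every Ndrg1 library, and control (26.8 ± 4.21 CPM, n = 6) lay with Ndrg1. The log2 change was 1.04 (SE 0.122, edgeR adjusted p = 0.00018). Clu passed in all 19 other settings tried (another scaling or tool, covariates, the replicate block, each library left out), with log2 changes of 0.95 to 1.11, and the change was 1.16 without the muscle-rich libraries. With the mitochondrial level as a covariate it was 0.87 (adjusted p = 0.0145), and with muscle, adipocyte and mitochondrial levels together 0.78 (adjusted p = 0.051, edgeR).

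**Figure D3:**
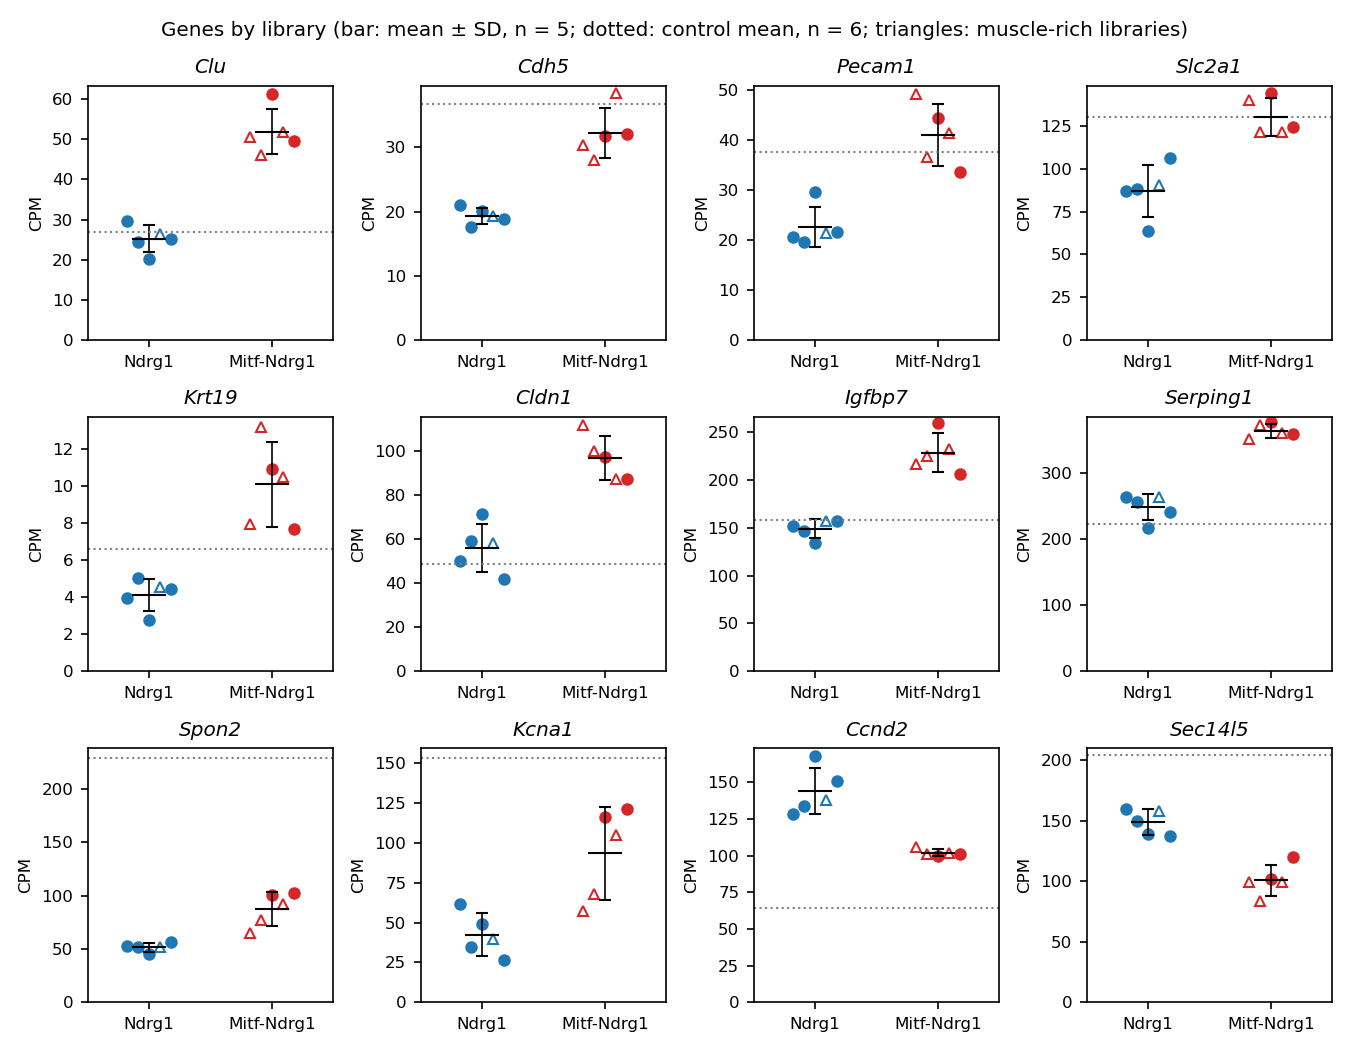
CPM of 12 genes in each of the 5 Ndrg1 (blue) and 5 Mitf-Ndrg1 (red) libraries; bars are means with SD, the dotted line is the control mean (n = 6), and open triangles mark the muscle-rich libraries. The groups do not overlap for Clu, Cdh5, Pecam1, Slc2a1, Krt19, Cldn1, Igfbp7, Serping1, Spon2, Ccnd2 and Sec14l5, and they overlap for Kcna1.

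Endothelial markers were the cell type list with the most called members. Of 16, 7 rose, against 1.07% of all genes (Pecam1, Cdh5, Slc2a1, Cldn5, Tie1, Tek and Esam), none fell, and all 16 log2 changes were positive, with a median of 0.459 against 0.000138 over all genes. The list summed to 445, 398, 381, 442 and 474 CPM in Ndrg1 and to 629, 506, 612, 563 and 562 CPM in Mitf-Ndrg1. The lowest Mitf-Ndrg1 library was above the highest Ndrg1 library, and both groups lay below the control range of 713 to 851 CPM. Without the muscle-rich libraries the median was 0.467, and 4 of the 16 passed, all higher, against 2.43% of all genes. With muscle and adipocyte levels as covariates 2 passed. With the mitochondrial level as a covariate Pecam1 (edgeR adjusted p = 0.00945) and Cdh5 (0.032) passed, and Cldn5 (0.114) and Slc2a1 (0.168) did not. In bulk nerve, fewer cells of a type and less RNA per cell cannot be told apart.

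Cdh5 encodes VE-cadherin, the adhesion molecule of endothelial junctions (chr8:104101625-104144511, plus strand). It stood at 21, 17.7, 20.1, 19.4 and 18.8 CPM in Ndrg1 and at 30.4, 28.1, 31.8, 38.5 and 32.1 CPM in Mitf-Ndrg1. The groups did not overlap, and the log2 change was 0.73 (SE 0.0991, edgeR adjusted p = 0.00082), the same without the muscle-rich libraries. Pecam1, the endothelial adhesion molecule CD31 (chr11:106654217-106750628), stood at 20.7, 19.6, 29.5, 21.4 and 21.7 CPM in Ndrg1 and at 49.2, 36.5, 44.4, 41.4 and 33.6 CPM in Mitf-Ndrg1. Ndrg1 replicate 3 was the highest of its group and still below all Mitf-Ndrg1 libraries (log2 0.87, SE 0.121, edgeR adjusted p = 0.00082). The tight junction gene Cldn5 (log2 0.53, edgeR adjusted p = 0.0116), the angiopoietin receptor pair Tek (0.42, 0.0307) and Tie1 (0.53, 0.0407), and the junction gene Esam (0.39, 0.0235) changed by less. The VEGF receptors Kdr (log2 0.07) and Flt1 (0.27) did not pass, nor did Vwf (0.23) or Eng (0.30). Kdr stood at 22.7 ± 2.45 CPM in Ndrg1 and 23.8 ± 4.09 CPM in Mitf-Ndrg1, against a control mean of 53.5 CPM.

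The perineurium is the cell layer that wraps each nerve fascicle and forms a diffusion barrier. Of 12 perineurial markers 4 rose, against 1.07% of all genes: the tight junction gene Cldn1, the keratin Krt19, the netrin Ntn4 and the glucose transporter Slc2a1, which is also an endothelial marker of barrier vessels. None fell, 11 of 12 log2 changes were positive, and the median was 0.538. It was 0.572 without the muscle-rich libraries, where 1 was higher, against 2.43% of all genes. With muscle and adipocyte levels as covariates 0 of the 12 passed in edgeR. With the mitochondrial level as a covariate Cldn1 (edgeR adjusted p = 0.0675), Krt19 (0.197) and Slc2a1 (0.168) did not pass, while Ntn4 did (0.0376). The list summed to between 319 and 461 CPM in Ndrg1, between 534 and 622 CPM in Mitf-Ndrg1, and between 753 and 1070 CPM in control.

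Cldn1 (chr16:26356642-26371841) stood at 50.1, 59.2, 71.3, 58.3 and 42.0 CPM in Ndrg1 and at 112, 100, 97.5, 87.4 and 87.4 CPM in Mitf-Ndrg1. All Mitf-Ndrg1 libraries were above all Ndrg1 libraries and above the control mean of 48.6 CPM, and the log2 change was 0.79 (SE 0.175, edgeR adjusted p = 0.0296). Krt19 stood at 3.95, 5.03, 2.75, 4.54 and 4.42 CPM in Ndrg1 and at 7.97, 13.2, 10.9, 10.5 and 7.69 CPM in Mitf-Ndrg1, again without overlap (log2 1.27, SE 0.265, edgeR adjusted p = 0.0196). Slc2a1 stood at 86.7, 88.0, 63.5, 90.7 and 106 CPM in Ndrg1 and at 140, 121, 144, 121 and 124 CPM in Mitf-Ndrg1, with a control mean of 130 CPM (log2 0.58, SE 0.108, edgeR adjusted p = 0.0101). The Mitf-Ndrg1 libraries of Slc2a1 surrounded the control mean, and the Ndrg1 libraries lay below it. Cldn1 lost its call without any one of Ndrg1 replicates 1, 2, 4 and 5 or Mitf-Ndrg1 replicates 2, 3 and 4, and Krt19 without Ndrg1 replicate 5 or Mitf-Ndrg1 replicate 4. Ntn4 (log2 0.41, edgeR adjusted p = 0.0317) lost it without Ndrg1 replicate 1, 4 or 5 or Mitf-Ndrg1 replicate 2 or 3.

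Other cell types of the nerve showed no called members. None of 12 pericyte and smooth muscle markers (edgeR; 7 higher at an unadjusted p below 0.05, 1 by DESeq2), 15 fibroblast markers (4 and 1) or 19 macrophage markers (3 at an unadjusted p below 0.05, 1 higher and 2 lower, and 0 by DESeq2) passed. Their median log2 changes were 0.433, 0.139 and -0.0409. The pericyte median was 0.183 without the muscle-rich libraries. Genes of complement, a plasma and tissue defence cascade, had 1 riser of 18, against 1.07% of all genes. It was Serping1, the inhibitor of the C1 protease. Serping1 stood at 264, 256, 216, 263 and 241 CPM in Ndrg1 and at 351, 372, 376, 360 and 359 CPM in Mitf-Ndrg1, with no overlap (log2 0.55, SE 0.093, edgeR adjusted p = 0.00499). It passed without the muscle-rich libraries (edgeR adjusted p = 0.0243). It did not pass with muscle and adipocyte covariates (0.0531) or with the mitochondrial covariate (0.0924).

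Secreted and matrix proteins supplied further risers. Of 31 matrix proteins, proteases and inhibitors 1 rose, against 1.07% of all genes. It was Plat, the tissue plasminogen activator (log2 0.54, SE 0.0954, edgeR adjusted p = 0.00796). None fell, and 29 of the 31 log2 changes were positive with a median of 0.286. At an unadjusted p below 0.05, 13 of the 31 genes were higher, and 7 passed by DESeq2. With the muscle-rich libraries left out 10 passed, all higher, against 2.43% of all genes, and the median was 0.478. Plat stood at 87.2, 79.8, 81.5, 84.2 and 67.8 CPM in Ndrg1 and at 89.7, 111, 144, 115 and 122 CPM in Mitf-Ndrg1. Its lowest Mitf-Ndrg1 library was just above the highest Ndrg1 library. With the mitochondrial level as a covariate Plat did not pass (edgeR adjusted p = 0.0836). Igfbp7, a secreted protein that binds insulin-like growth factors, stood at 152, 146, 134, 157 and 157 CPM in Ndrg1 and at 216, 225, 259, 232 and 206 CPM in Mitf-Ndrg1 (log2 0.61, SE 0.0876, edgeR adjusted p = 0.001). Spon2, a secreted matrix protein of the spondin family, stood at 52.7, 51.6, 44.9, 52.0 and 56.2 CPM in Ndrg1 and at 64.9, 76.7, 101, 92.0 and 102 CPM in Mitf-Ndrg1, far below the control mean of 229 CPM (log2 0.76, SE 0.105, edgeR adjusted p = 0.00082). Neither gene's groups overlapped, and both passed in all 19 other settings. Ackr3, a scavenger receptor for chemokines, rose in all 19 too (log2 0.67, SE 0.108, edgeR adjusted p = 0.00377), with 20.7 ± 1.29 CPM in Ndrg1 and 32.9 ± 4.09 CPM in Mitf-Ndrg1. Without the muscle-rich libraries its log2 change was 0.50 and did not pass (edgeR adjusted p = 0.0776).

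Among the risers with a log2 change of at least 1 were several genes at low levels. Bmp3, a secreted ligand of the BMP family, stood at 5.39, 5.82, 5.18, 5.72 and 3.64 CPM in Ndrg1 and at 15.4, 9.67, 11.3, 12.8 and 9.97 CPM in Mitf-Ndrg1 (log2 1.20, SE 0.213, edgeR adjusted p = 0.00796). Its control mean of 9.11 CPM lay between the groups. The neuropeptide Y receptor Npy1r (log2 1.39), the synaptic protein gene Rims4 (1.73), the EGF-repeat gene Egfl6 (1.11), the secreted C1q-family gene C1qtnf9 (1.06), the endothelial lectin Clec1a (1.04), the small GTPase Rasd1 (1.15), the sugar transporter Slc2a12 (1.29) and the adenosine receptor Adora1 (1.07) were the others, with edgeR adjusted p from 0.00823 to 0.025. Without the muscle-rich libraries only Egfl6 of these 8 passed, and Rasd1 went to 0.32. With muscle and adipocyte levels as covariates none of the 8 passed, nor did Bmp3 (edgeR adjusted p = 0.0586). With the mitochondrial level as a covariate only Npy1r of the 8 passed (edgeR adjusted p = 0.0132), and Bmp3 did not (0.0836).

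Schwann cell genes mostly did not pass the test. None of the 20 myelin protein genes passed (edgeR; 5 at an unadjusted p below 0.05, 4 higher and 1 lower, and 1 by DESeq2), and their median log2 change was 0.141. The list's median was 0.297 without the muscle-rich libraries, where 6 of the 20 passed, all higher, against 2.43% of all genes. Egr2, the factor that drives myelination, was at 98.5 ± 9.47 and 103 ± 20.3 CPM (log2 0.06), and none of 14 factors of its list passed (edgeR; 2 at an unadjusted p below 0.05, 0 by DESeq2). Of 16 genes of the node and paranode tested, 1 rose, against 1.07% of all genes, and none fell. Kcna1, a voltage-gated potassium channel subunit of the juxtaparanode, stood at 61.8, 35, 49.2, 39.4 and 26.6 CPM in Ndrg1 and at 57.4, 67.6, 116, 105 and 121 CPM in Mitf-Ndrg1 (log2 1.14, SE 0.224, edgeR adjusted p = 0.0174). Mitf-Ndrg1 replicate 1 overlapped the Ndrg1 range, the control mean was 153 CPM, and the call was lost without Ndrg1 replicate 5.

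The repair programme of Schwann cells did not pass the test in either direction. Of 27 repair genes tested, 0 passed in edgeR, 7 were higher and none lower at an unadjusted p below 0.05, and 1 was called by DESeq2. The median log2 change was 0.225, and 21 of 27 were positive. Without the muscle-rich libraries the median was 0.336 with 2 risers, against 2.43% of all genes. The list summed to between 810 and 922 CPM in Ndrg1, between 846 and 1200 CPM in Mitf-Ndrg1, and between 243 and 263 CPM in control. Jun, the transcription factor at the head of the programme, stood at 112, 119, 84.2, 111 and 124 CPM in Ndrg1 and at 110, 119, 136, 135 and 122 CPM in Mitf-Ndrg1 (log2 0.18, SE 0.093, edgeR adjusted p = 0.317). Sonic hedgehog, Shh, stood at 14.4, 10.4, 15.6, 16.9 and 17.3 CPM in Ndrg1 and at 14.3, 14.2, 30.6, 33.7 and 29.8 CPM in Mitf-Ndrg1, against a control mean of 0.446 CPM (log2 0.72, SE 0.288, edgeR adjusted p = 0.196). For Shh, Mitf-Ndrg1 replicates 3, 4 and 5 were above every Ndrg1 library and replicates 1 and 2 were within their range. The neurotrophic factor Gdnf (5.59 ± 1.48 against 6.25 ± 2.31 CPM, log2 0.16) and the growth factor Btc (18.2 ± 5.4 against 26.7 ± 4.4 CPM, log2 0.55, edgeR adjusted p = 0.16) were other members that did not pass, with control means of 0.0724 and 0.682 CPM.

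Genes that MITF and its relatives are known to regulate were also mostly below the threshold. Of 35 lysosomal hydrolases and cathepsins 1 rose, against 1.07% of all genes. It was the acid sphingomyelinase Smpd1 (34.6 ± 5.38 CPM in Ndrg1, 46.0 ± 4.92 CPM in Mitf-Ndrg1, log2 0.41, edgeR adjusted p = 0.0441). Of the 35 log2 changes 30 were positive, with a median of 0.0864. Without the muscle-rich libraries the median was 0.255 and 2 passed, both higher, against 2.43% of all genes. Smpd1 passed in 5 of the 19 other settings. None of 30 lysosome membrane and proton pump genes (edgeR; 2 at an unadjusted p below 0.05, 1 by DESeq2), 28 autophagy genes (7 and 1), or 13 pigment cell genes and MITF targets (4 and 1) passed, and their medians were 0.0249, 0.103 and 0.13. The last of these was 0.324 without the muscle-rich libraries, where 1 of the 13 was higher, against 2.43% of all genes. Gpnmb, a membrane glycoprotein regulated by MITF in pigment cells, stood at 380, 441, 314, 408 and 404 CPM in Ndrg1 and at 346, 358, 391, 338 and 453 CPM in Mitf-Ndrg1. The groups overlapped, both were far above the control mean of 8.92 CPM, and the log2 change was -0.05 (SE 0.139, edgeR adjusted p = 0.908). The related factors Tfeb (log2 0.15), Tfe3 (-0.10) and Tfec (-0.42) did not pass.

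Lipid and metabolic genes gave a few risers, as did 1 gene of immature Schwann cells, the membrane protein gene Emp1 (301 ± 43.2 to 402 ± 28.4 CPM, log2 0.42, edgeR adjusted p = 0.0197). Of 18 genes of fatty acid synthesis and activation 2 rose, against 1.07% of all genes, the elongase Elovl5 (72.7 ± 8.06 to 89.6 ± 6.01 CPM, log2 0.30, edgeR adjusted p = 0.0384) and the acyl-CoA synthetase Acsl1 (log2 0.69, edgeR adjusted p = 0.0196). Of 18 genes of sphingolipid and galactolipid synthesis 1 rose, the sphingomyelin synthase Sgms1 (log2 0.42, edgeR adjusted p = 0.0466), and of 19 glycolysis genes the aldolase Aldoc fell (log2 -0.47, edgeR adjusted p = 0.0375) while Slc2a1 rose. Over all genes 1.07% rose and 0.402% fell. Of the 19 other settings, Sgms1 passed in 5, and Elovl5 and Aldoc in 9 each. None of these 3 passed with the muscle-rich libraries left out (edgeR adjusted p = 0.0946 for Sgms1, 0.0829 for Elovl5 and 0.42 for Aldoc). The Acsl1 value was 0.22 without the muscle-rich libraries and did not pass. None of 24 cholesterol synthesis genes passed (edgeR; 7 lower at an unadjusted p below 0.05, 3 by DESeq2), with a median of -0.117 that became 0.159 without the muscle-rich libraries. The glutathione-degrading enzyme Chac1, a target of the integrated stress response, rose with a log2 change of 2.26 (SE 0.52, edgeR adjusted p = 0.0307), with its highest value of 3.65 CPM in Mitf-Ndrg1 replicate 4 and 0.311 to 1.03 CPM in the others. Without the muscle-rich libraries the Chac1 value was 0.49 (edgeR adjusted p = 0.694).

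The cell cycle gene Ccnd2, which encodes cyclin D2 (chr6:127125162-127152193), had the smallest p among the genes that fell. It stood at 128, 134, 168, 138 and 151 CPM in Ndrg1 and at 106, 101, 100, 102 and 101 CPM in Mitf-Ndrg1, against 64.1 ± 5.36 CPM (SD, n = 6) in control. All 5 Mitf-Ndrg1 libraries were below all 5 Ndrg1 libraries, and the log2 change was -0.50 (SE 0.0751, edgeR adjusted p = 0.00213). Ccnd2 passed in all 19 other settings and without the muscle-rich libraries, and with the mitochondrial level as a covariate it was -0.34 with an edgeR adjusted p of 0.0845. No other member of the 13 D cyclins and CDK inhibitors passed, and Ccnd1 was at 530 ± 35.7 and 466 ± 21.6 CPM (log2 -0.19). None of 25 DNA replication genes or 30 mitosis genes passed in edgeR (1 of each list at an unadjusted p below 0.05, 0 by DESeq2), and their medians were -0.105 and 0.009.

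The other genes that fell by the rule for named genes had log2 changes of -0.38 to -0.70. They were Cfap100, a cilia-associated gene, Sec14l5, which encodes a lipid-binding protein, Gprasp1, a receptor sorting protein, Bcat1, the cytosolic branched-chain aminotransferase, the transcription factors Shox2 and Hlf, the RNA-binding proteins Taf15 and Pabpn1, and Rimklb, Akap8 and Lmbr1l. Sec14l5 stood at 160, 150, 139, 158 and 137 CPM in Ndrg1 and at 99.5, 84.0, 102, 99.1 and 120 CPM in Mitf-Ndrg1, with a control mean of 204 CPM (log2 -0.56, SE 0.103, edgeR adjusted p = 0.00889). Bcat1 stood at 19.6, 16.6, 13.8, 18.3 and 21.4 CPM in Ndrg1 and at 10.2, 11.1, 11.1, 9.15 and 13.6 CPM in Mitf-Ndrg1, with a control mean of 8.85 CPM (log2 -0.70, SE 0.136, edgeR adjusted p = 0.0123). Neither gene's groups overlapped. Neither passed with the muscle-rich libraries left out (edgeR adjusted p = 0.159 for Sec14l5 and 0.164 for Bcat1), nor did Cfap100, Gprasp1, Rimklb, Pabpn1 and Lmbr1l. Relative to control, the mean levels of Bcat1 and Ccnd2 were higher in both compared groups, and those of Sec14l5 lower in both. Mitf lies on chromosome 6 (chr6:97807052-98021349, plus strand). So do Ccnd2 and, of the other named genes, Cfap100, Bcat1 and Rimklb, which fell, and Kcna1, Clec1a and Emp1, which rose. Whether nearness to Mitf on the chromosome plays a part in their changes was not tested.

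Whether the Mitf label acted differently with and without the Ndrg1 label was tested directly, as the difference between both contrasts. It passed for 62 genes (0.39%), 46 (0.289%) with a higher and 16 (0.101%) with a lower log2 change in the presence of the Ndrg1 label. With the scaling of DESeq2's size factors in the same edgeR fit the split was 47 and 30. Without the Ndrg1 label, the Mitf contrast itself called 1 gene (0.00629%), the leukotriene enzyme Alox5, which fell with a log2 change of -0.95 (edgeR adjusted p = 0.00832), and 994 genes at an unadjusted p below 0.05. Alox5 also fell with the Ndrg1 label (log2 -0.65, edgeR adjusted p = 0.0367), and the difference of 0.30 did not pass (edgeR adjusted p = 0.564). The fall with the Ndrg1 label did not pass without the muscle-rich libraries (log2 -0.51, edgeR adjusted p = 0.194). Nor did it pass with muscle and adipocyte levels as covariates (log2 -0.70, edgeR adjusted p = 0.083).

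Clu had a log2 change of 1.04 with the Ndrg1 label and -0.28 without it, a difference of 1.31 (edgeR adjusted p = 0.000579). For Spon2 the pair was 0.76 and -0.19 (difference 0.95, edgeR adjusted p = 0.00423), for Igfbp7 0.61 and -0.10 (0.71, 0.0112), and for Krt19 1.27 and -0.35 (1.62, 0.0419). The ion transport regulator Fxyd6 (difference 1.18), the insulin receptor substrate Irs3 (1.20) and the glycosyltransferase Galnt9 (4.21) had an edgeR adjusted p of 0.0112 each. Galnt9 stood at 2.04, 1.21, 1.51, 0.996 and 0.688 CPM in Ndrg1 and at 4.14, 3.04, 6.76, 2.45 and 3.69 CPM in Mitf-Ndrg1. Its levels without the Ndrg1 label were 0.456 ± 0.326 CPM in control and 0.074 ± 0.075 CPM in Mitf (n = 6 each), and the change with the Ndrg1 label, 1.64, did not pass by itself (edgeR adjusted p = 0.0554). Ccnd2 had a difference of -0.49 (edgeR adjusted p = 0.0337). The endothelial genes Cdh5 (difference 0.56, edgeR adjusted p = 0.056) and Pecam1 (0.71, 0.0513) did not pass this test.

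**Figure D4:**
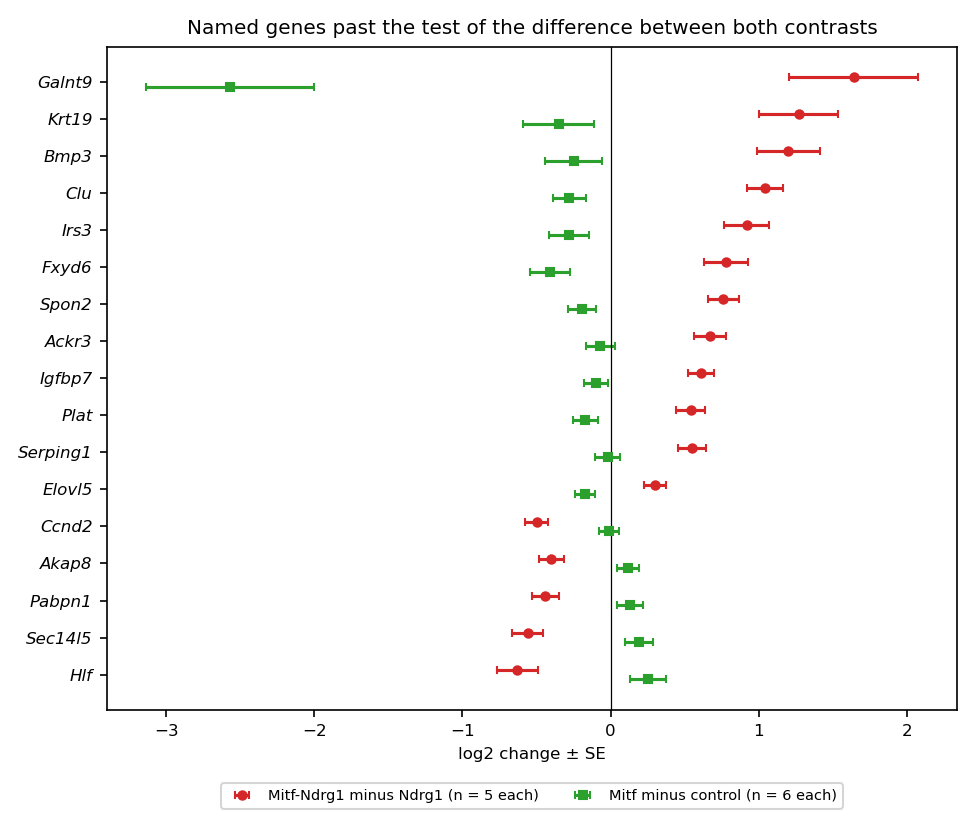
Log2 change ± SE of the 17 named genes that passed the test of the difference, for Mitf-Ndrg1 minus Ndrg1 (red circles, n = 5 each) and for Mitf minus control (green squares, n = 6 each). For 12 genes the red point lies above 0 and above the green point, and for 5 (Ccnd2, Akap8, Pabpn1, Sec14l5 and Hlf) it lies below both.

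Gene sets from other tables of the series, whose libraries are not used above, were described in the same contrast. In nerves lacking Fig4, a lipid phosphatase, at P12, 1.19% of the genes tested were higher by an adjusted p below 0.05 and a log2 change of at least 1, and 0.258% lower. Of the 169 higher ones tested here, 3 rose (1.78%, against 1.07% of all genes) and 0 fell. The 3 were Angptl4, Angpt2 and Olfml2a, and the median of the set was 0.107. In nerves labelled Mitf, 5.49% were higher and 1.99% lower by that rule 3 days after injury. Of 830 of the higher genes, 3 rose (0.361%, against 1.07% of all genes) and 7 fell (0.843%, against 0.402%), with a median of -0.075. Of 300 of the lower genes, 10 rose (3.33%) and 1 fell, with a median of 0.068. Those 10 were Wnt6, Kcna1, Mmp28, Ecm2, Wfdc1, Kcnj13, Dgat2, Bmp6, Ldlrad3 and Fbln7. The set was not counted again without the muscle-rich libraries. In that setting Kcna1 passed (edgeR adjusted p = 0.00998), while the adipocyte marker Dgat2 (0.935) did not. Angptl4, which inhibits lipoprotein lipase, was at 84.4 ± 8.63 CPM in Ndrg1 and 134 ± 21.6 CPM in Mitf-Ndrg1 (log2 0.67, edgeR adjusted p = 0.0218), and the signalling ligand Wnt6 at 23.7 ± 4.48 and 35.2 ± 3.36 CPM (log2 0.57, edgeR adjusted p = 0.0147).

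**Figure D5:**
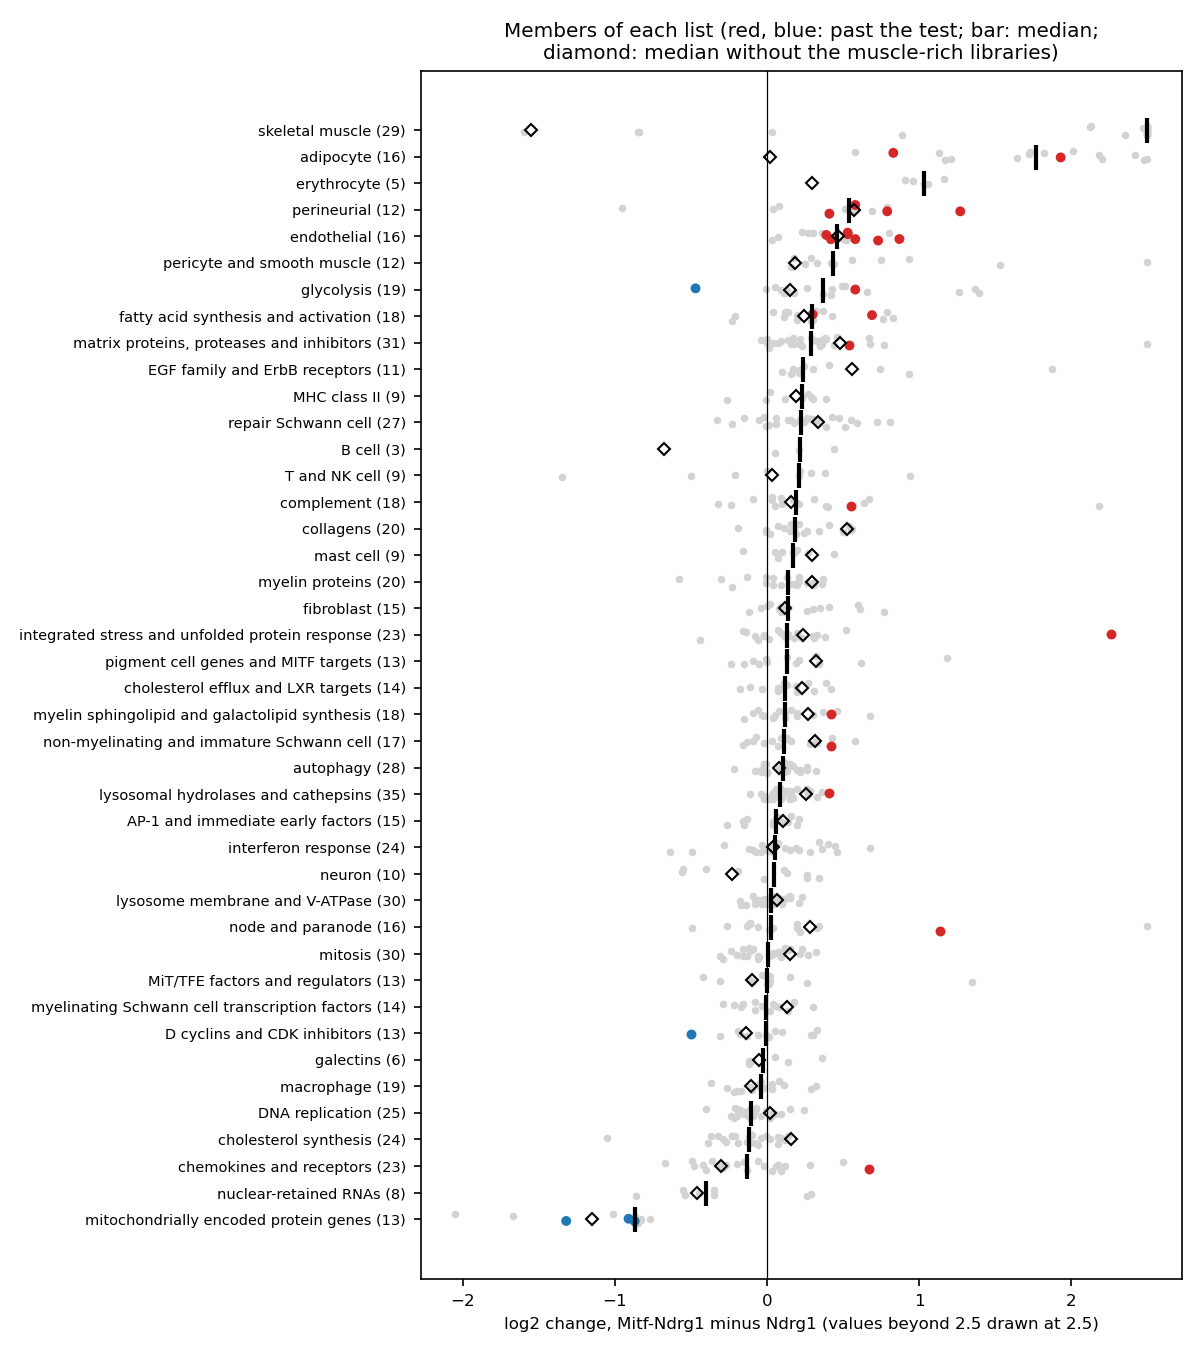
Log2 change of each tested member (points; red rose, blue fell, grey did not pass) of the gene lists, with the number tested in brackets, the median (bar) and the median without the muscle-rich libraries (diamond). Endothelial and perineurial medians, 0.459 and 0.538, are nearly the same without those libraries, while the skeletal muscle and adipocyte medians go from 3.80 to -1.55 and from 1.77 to 0.0186.

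Promoters of the called genes were searched for the E-box that MITF and its relatives bind, because the Mitf label is what differs between the groups. RefSeq promoters (GRCm38.p6, 250 bases before to 50 bases after the start) were matched by symbol for 10782 of the 15910 genes tested, 109 that rose and 43 that fell. The letters CACGTG, which read the same on both strands, were in 8.26% of the promoters of risers, 9.3% of those that fell and 11.4% of all. The longer form TCACGTG, which contains CACGTG, was in 4.59%, 9.3% and 6.79%, the M-box core TCATGTG in 4.59%, 2.33% and 2.79%, and the AP-1 element TGAGTCA in 4.59%, 2.33% and 4.76%, each on either strand. These shares rest on 1 to 9 promoters per set of called genes, were not tested and are a description only. The named risers Elovl5 and Npy1r show how the letters lie, with the match in capitals, on the plus strand from 5′ to 3′: the first (chr9:77917115-77917414), 161 bases before the start, and the second (chr8:66697172-66697471), 60 bases before it, where the match is the reverse complement of TCATGTG.
Elovl5: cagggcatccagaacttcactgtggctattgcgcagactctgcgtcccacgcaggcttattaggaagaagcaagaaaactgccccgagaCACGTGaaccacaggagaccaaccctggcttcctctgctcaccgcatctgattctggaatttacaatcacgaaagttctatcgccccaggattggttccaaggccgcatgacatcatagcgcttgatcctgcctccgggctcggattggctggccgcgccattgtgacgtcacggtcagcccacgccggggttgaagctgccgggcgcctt
Npy1r: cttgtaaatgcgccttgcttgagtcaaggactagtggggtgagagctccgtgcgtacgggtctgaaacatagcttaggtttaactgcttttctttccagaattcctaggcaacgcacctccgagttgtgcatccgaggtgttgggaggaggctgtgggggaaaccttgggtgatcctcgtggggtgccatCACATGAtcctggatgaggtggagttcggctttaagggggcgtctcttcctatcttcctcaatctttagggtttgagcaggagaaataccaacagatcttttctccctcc
The Elovl5 match is followed by a base that makes it TCACGTG on the other strand, and the Npy1r promoter also holds TGAGTCA. The starts used here are those of RefSeq. By GENCODE the Npy1r gene begins at chr8:66697192, ahead of the TCATGTG match, which then lies inside the gene.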

How the data were processed

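Messenger RNA of mouse sciatic nerve was sequenced from stranded libraries, per the labels' protocols. The authors deposited estimated counts per gene, and the submitters' processing notes name kallisto and the mm10 build without versions. The estimated counts were rounded, genes were kept by edgeR's filterByExpr (minimum count 10; 15910 of 18003), and libraries were scaled by TMM. The test was edgeR 4.0.16's robust quasi-likelihood test (R 4.3.3) over all 22 libraries of the table, two-sided, with Benjamini-Hochberg adjustment. Estimated counts of genes that share sequence with a copy can be split by the authors' method. No pair of libraries agreed within sampling noise (lowest chi-square per degree of freedom 9.607). On simulated data for this comparison (15698 genes tested), 57% of 1.5-fold and 84% of 2-fold changes were recovered, with 9 unchanged genes called. Each gene was drawn independently, so no simulated library carried muscle, fat or mitochondrial RNA that moves many genes together. The rates therefore do not cover that kind of spread.

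Named genes are Mitf and Ndrg1, up to 12 genes per direction with the smallest p (log2 change of at least 1 where 12 such genes pass, over the 10 libraries averaging 1 CPM or more, without gene models named by clone or number, pseudogenes and, of sex-linked genes, Xist, Tsix and the listed Y-linked ones), up to 4 members of each list, the 6 genes with the smallest p for the difference between contrasts, and list members needed to describe a list. Members and lists were chosen with earlier results of these data known. Alternatives were DESeq2 1.42.0, other scaling, no filter, covariates, the replicate block and leaving out libraries. Gene coordinates are from GENCODE vM21 (mm10). The sets from other tables held genes with an adjusted p below 0.05 and a log2 change of at least 1. The values of 1 gene are not reported here.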

Additional observations from a re-analysis of the deposited data

Results flagged for a closer look

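A difference between the Mitf contrasts with and without the Ndrg1 label, by edgeR's interaction test, was found for 17 named genes. On the log2 scale it was 1.31 for Clu, 1.45 for Bmp3, 1.62 for Krt19, 0.95 for Spon2, 0.71 for Igfbp7, 0.71 for Plat, 0.74 for Ackr3, 0.57 for Serping1, 0.47 for Elovl5, 1.18 for Fxyd6, 1.20 for Irs3 and 4.21 for Galnt9, all higher with the Ndrg1 label. It was -0.49 for Ccnd2, -0.75 for Sec14l5, -0.52 for Akap8, -0.57 for Pabpn1 and -0.88 for Hlf. In the group labelled Mitf the muscle markers summed to 1711, 47700, 3453 and 1791 CPM in replicates 1 to 4. In control they summed to 1501 CPM in replicate 1 and 1328 CPM in replicate 4. All of these libraries were over the limit of 1000 CPM. They stayed in the fit without the muscle-rich libraries, because the limit was applied to the compared groups alone.

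Single libraries stood far from the other 4 of their group in 10 of 116 groups checked, where chance gives about 1 in 20. Ndrg1 replicate 3 was the highest for Npy1r (2.29 CPM), Rimklb (119 CPM), Pecam1 (29.5 CPM) and mt-Nd6 (112 CPM) and the lowest for Smpd1 (25.2 CPM). Mitf-Ndrg1 replicate 4 was the highest for Chac1 (3.65 CPM), Pnpla2 (107 CPM) and the summed muscle markers (24790 CPM). Ndrg1 replicate 4 was the highest for the muscle sum (1762 CPM), and Mitf-Ndrg1 replicate 1 for Ccnd2 (106 CPM), a gap of a few CPM in a group with little spread.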

How the results depend on the processing

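Of the 49 named genes past the test, all kept their direction in the 19 other settings (18 for Chac1, which had no value with the compared groups fitted alone) and 7 (Clu, Cdh5, Pecam1, Spon2, Igfbp7, Ackr3 and Ccnd2) passed in every one. These settings reuse libraries that called the genes, so the kept directions are not an independent check. The call was lost by 40 with the muscle and adipocyte covariates, by 38 with the adipocyte covariate, by 34 with the compared groups fitted alone, by 25 without Ndrg1 replicate 5 and by 22 without Mitf-Ndrg1 replicate 4. The count of 234 genes was 750 with DESeq2 (470 higher, 280 lower), 31 with the compared groups fitted alone, and 153, 144, 58 and 36 with a sex, a skeletal muscle, an adipocyte and both latter covariates. It was 450 without the muscle-rich libraries and 37 with a mitochondrial covariate, of which 19 were among the 234, and 0 with all 3 tissue and mitochondrial covariates; these 3 settings were chosen after seeing the data. Leaving out 1 library gave 58 to 545. The count of 62 genes for the difference between contrasts was 403 with DESeq2, 96 with the muscle covariate, 17 with muscle and adipocyte covariates, 287 without the muscle-rich libraries and 36 with the mitochondrial covariate. Leaving out 1 library gave 20 to 252: 41, 163 and 20 without Ndrg1 replicates 2, 3 and 5, 252, 20 and 23 without Mitf-Ndrg1 replicates 1, 3 and 4, 27, 22, 156, 34 and 39 without control replicates 1, 2, 3, 4 and 6, and 23 and 34 without Mitf replicates 3 and 6. The cause of these differences was not tested. The log2 change of Ndrg1, -0.03, was 0.000257, 0.00765 and 0.00589 with the muscle, adipocyte and both covariates, -0.0668 to 0.00062 with 1 library left out and 0.0535 without the muscle-rich libraries, none past the test.

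The compared groups share replicate numbers. Deviations of same-numbered libraries correlated at -0.145 to 0.398, and 1 of 5 Mitf-Ndrg1 libraries correlated best with its own number, so the numbers were not taken as pairs. With the replicate block 228 genes passed for the comparison and 61 for the difference between contrasts.

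Genes at a few CPM, such as Rims4, Slc2a12 and Chac1, rest on few counts, and 1.5-fold changes were often missed in the simulation.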
